A study of Mus musculus with 10 samples.

Results

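The Ndrg (N-Myc downstream-regulated gene) family was followed in bulk RNA-sequencing of mouse lungs taken at postnatal day 14 (P14). Its members were found by their symbols Ndrg1, Ndrg2, Ndrg3 and Ndrg4 in the deposited gene table, and all 4 were among the 54532 genes of the table and among the 15388 genes with a mean of at least 0.5 FPKM. FPKM gives fragments per kilobase of gene length, scaled for each lung by a divisor whose origin is not stated. The IncPBF group (increased pulmonary blood flow, 5 lungs) came from wild-type C57/BL6 pups in which the abdominal aorta was punctured through into the inferior vena cava at P7, which opens a fistula between both vessels. The sham group (5 lungs) came from wild-type C57/BL6 pups operated on at P7 in the same way but without the puncture. Pups of either sex were used, each sample is labelled lung, and the labels give no litter or date. By sex-linked genes the 5 sham lungs and 1 IncPBF lung were male and 4 IncPBF lungs female, so sex and group cannot be told apart beyond that 1 lung. The family was chosen by its IncPBF and sham FPKM values, with those of all 10 lungs in view, so the difference of each member between the groups is a description and carries no test.

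NDRG proteins share an alpha/beta-hydrolase fold but no enzyme activity is known for them. Ndrg1, the founder, is repressed by N-Myc and Myc, is induced by low oxygen and nickel, is phosphorylated by the kinases SGK1 and GSK3, and is needed for myelin upkeep by Schwann cells. Ndrg2 is best known from astrocytes and as a growth-restraining gene, its RNA rises with glucocorticoids, and its protein is also an SGK1 substrate. Ndrg3 protein is hydroxylated by the prolyl hydroxylase PHD2 (Egln1), degraded through VHL, and held stable by lactate when oxygen is low, and Ndrg4 is best known from heart and brain.

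The coding sequences of the 4 genes were compared in GENCODE M21 transcripts (GRCm38), because close copies could exchange reads. They are 1113 to 1212 bases long, were identical at 61.7% to 67.5% of aligned bases between pairs, and were the same in all 4 at 45.5% of 1071 aligned positions. The 60-base stretch with most shared bases is printed 5′ to 3′, with the 43 bases that all 4 genes share in capitals, to show how far the members can be told apart even where they are most alike. It spans the junction of exons 14 and 15 in each transcript: Ndrg1-201 (minus strand, chr15:66933864-66936260, 16 exons), Ndrg2-201 (minus strand, chr14:51906513-51906697, 16 exons), Ndrg3-201 (minus strand, chr2:156931216-156931437, 17 exons) and Ndrg4-201 (plus strand, chr8:95710962-95711144, 17 exons).
Ndrg1: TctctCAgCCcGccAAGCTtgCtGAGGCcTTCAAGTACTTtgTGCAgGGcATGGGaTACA
Ndrg2: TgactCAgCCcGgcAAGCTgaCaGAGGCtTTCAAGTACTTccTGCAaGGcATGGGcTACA
Ndrg3: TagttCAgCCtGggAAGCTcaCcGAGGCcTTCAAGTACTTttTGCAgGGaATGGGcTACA
Ndrg4: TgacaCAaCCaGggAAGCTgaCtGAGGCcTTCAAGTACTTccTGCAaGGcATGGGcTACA

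The longest run that any pair shared over whole transcripts was 17 to 33 bases, and no stretch of 50 bases occurred in 2 members. Stretches of 50 bases shared with some other gene, on either strand, made up 0% of Ndrg2 and Ndrg4, 2.71% of Ndrg3 and 6.02% of Ndrg1. For Ndrg1 the genes that share them include the antisense Gm17035 and the divergent Gm2895, which overlap it on the other strand and were listed with 0 and 4 fragments over all 10 lungs against 3592 for Ndrg1. The strand was not stated to be used in counting, so reads from Ndrg1 and these partners cannot be told apart.

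RefSeq (GRCm38.p6) promoter windows, from 250 bases before to 50 bases after a start site, were matched by symbol for Ndrg2, Ndrg3 and Ndrg4. The table held 3 windows for Ndrg2, 2 for Ndrg3 and 4 for Ndrg4, and none was matched for Ndrg1. Each was searched on both strands for GCGTG and ACGTG, the core of the hypoxia response element, for CACGTG, the E-box bound by Myc and Max, which contains ACGTG, and for AGAACA, a glucocorticoid receptor half-site. For the member that was lower by most and the member that was higher in IncPBF lungs, the window with most matches is printed on the gene's strand, with matches on either strand in capitals. The Ndrg2 window lies at chr14:51913439-51913738 (minus strand) and the Ndrg4 window at chr8:95677513-95677812 (plus strand).
Ndrg2: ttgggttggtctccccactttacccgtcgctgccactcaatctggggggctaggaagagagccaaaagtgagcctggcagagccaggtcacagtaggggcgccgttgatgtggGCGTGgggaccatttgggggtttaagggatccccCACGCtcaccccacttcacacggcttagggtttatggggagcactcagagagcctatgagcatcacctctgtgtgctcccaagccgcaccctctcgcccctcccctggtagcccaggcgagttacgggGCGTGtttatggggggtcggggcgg
Ndrg4: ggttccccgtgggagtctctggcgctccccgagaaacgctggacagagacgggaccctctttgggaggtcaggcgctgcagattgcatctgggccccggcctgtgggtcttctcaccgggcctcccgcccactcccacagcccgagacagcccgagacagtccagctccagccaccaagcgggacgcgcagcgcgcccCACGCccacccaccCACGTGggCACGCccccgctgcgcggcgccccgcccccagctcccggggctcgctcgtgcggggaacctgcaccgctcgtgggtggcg
The Ndrg2 window held 3 GCGTG, beginning 137 and 103 bases before and 25 bases after the start site, and no CACGTG or AGAACA. The Ndrg4 window held 1 CACGTG beginning 38 bases before the start site, whose letters read as ACGTG on both strands, and 2 GCGTG beginning 52 and 30 bases before it. The window of Ndrg3 with most matches, chr2:156991654-156991953 (minus strand), held 2 GCGTG. Of 32851 windows of this length over all genes, 32.4% held GCGTG, 19.6% ACGTG, 7.15% CACGTG and 19.0% AGAACA. Those shares are per single window, while each member is shown by its best of several. The printed start sites lie 670 (Ndrg2) and 783 bases (Ndrg4) from the gene start in the deposited table, and that of the Ndrg3 window lies 353 bases from it. The window nearest the gene start held no match for Ndrg2 (154 bases away) or Ndrg3 (55 bases away) and 1 GCGTG for Ndrg4 (6 bases away). These are matches of letters in windows picked for having them, and none of these data measured binding.

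Ndrg2 was far lower in IncPBF lungs, Ndrg1 was modestly lower, Ndrg4 was higher, and Ndrg3 was at nearly the same level in both groups (see the plot of FPKM by lung). For 3 of the 4 members the groups did not overlap, while 23.2% of all genes tested had groups that did not overlap (11.2% lower and 12.0% higher in IncPBF). That count belongs to the contrast in which the members were chosen.

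**Figure D1:**
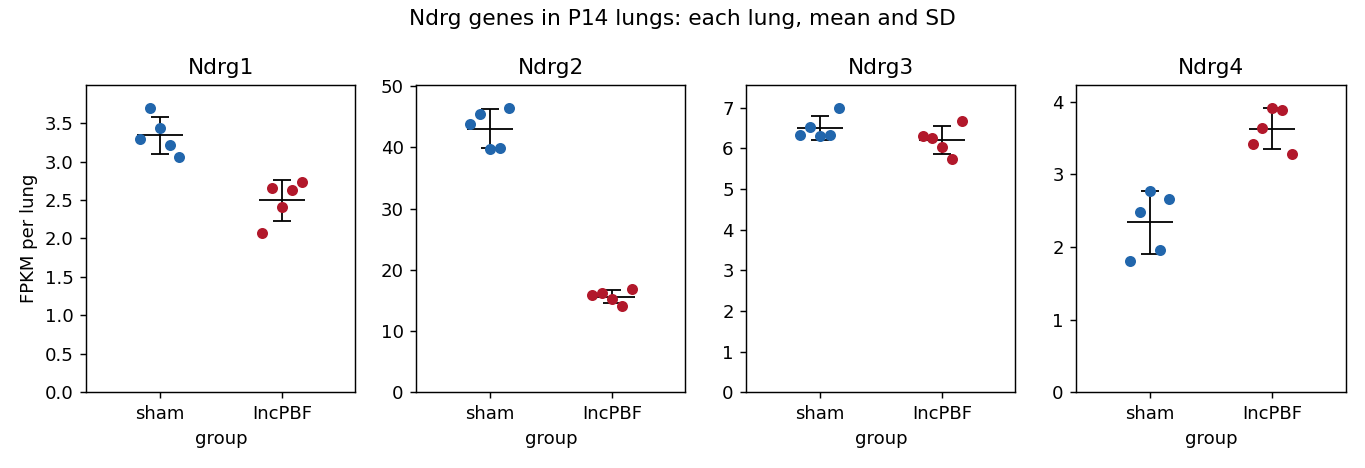
FPKM of Ndrg1, Ndrg2, Ndrg3 and Ndrg4 (vertical axes, each from 0) in each of the 5 sham (blue) and 5 IncPBF (red) lungs, with the mean as a bar and the SD as whiskers. The groups are apart for Ndrg1, Ndrg2 and Ndrg4 and overlap for Ndrg3.

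Ndrg2 (ENSMUSG00000004558, chromosome 14, 51905271 to 51914158, minus strand) had the highest level of the family. Its FPKM in sham lungs 1 to 5 was 43.8, 45.5, 39.8, 39.9 and 46.5, and in IncPBF lungs 1 to 5 it was 15.8, 16.2, 15.2, 14.02 and 16.9. Every IncPBF lung was below every sham lung, with 22.9 FPKM between the highest IncPBF lung and the lowest sham lung. The means were 43.1 ± 3.13 FPKM (SD, n = 5) in sham and 15.6 ± 1.09 FPKM (SD, n = 5) in IncPBF, so IncPBF lungs held 36.3% of the sham level, a 2.76-fold lower mean. On the log2(FPKM + 0.1) scale, used for all log2 differences here, IncPBF minus sham was -1.46 (SE 0.07), and 115 of 15388 genes had a lower difference. The counts behind these values were 822 to 1192 fragments per IncPBF lung and 2543 to 2911 per sham lung.

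Ndrg1 (ENSMUSG00000005125, chromosome 15, 66929318 to 66969640, minus strand) differed less. Sham lungs 1 to 5 had 3.29, 3.70, 3.44, 3.21 and 3.06 FPKM, and IncPBF lungs 1 to 5 had 2.07, 2.65, 2.41, 2.63 and 2.73 FPKM. The groups did not overlap, but only 0.325 FPKM separated IncPBF lung 5 from sham lung 5. IncPBF lung 1 was the lowest of all. The means were 3.34 ± 0.245 FPKM (SD, n = 5) in sham and 2.50 ± 0.267 FPKM (SD, n = 5) in IncPBF, or 74.8% of sham, with a log2 difference of -0.41 (SE 0.09). Ndrg1 rested on 264 to 374 fragments per IncPBF lung and 351 to 460 per sham lung.

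Ndrg4 (ENSMUSG00000036564, chromosome 8, 95676980 to 95715119, plus strand) was the member that was higher in IncPBF lungs. Its values were 1.81, 2.48, 2.77, 1.96 and 2.66 FPKM in sham lungs 1 to 5 and 3.41, 3.64, 3.92, 3.88 and 3.28 FPKM in IncPBF lungs 1 to 5. The groups were apart by 0.509 FPKM. The mean was 2.34 ± 0.429 FPKM (SD, n = 5) in sham and 3.63 ± 0.282 FPKM (SD, n = 5) in IncPBF, which was 155% of sham, with a log2 difference of 0.63 (SE 0.12). Sham lungs spread most for this gene: the coefficient of variation was 18.4%, against 6.89% from counting 159 to 255 fragments per lung. The 5 sham values fell into a lower pair (lungs 1 and 4) and a higher trio. In IncPBF lungs Ndrg4 was counted with 323 to 354 fragments.

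Ndrg3 (ENSMUSG00000027634, chromosome 2, 156927345 to 156992056, minus strand) had 6.34, 6.52, 6.31, 6.34 and 7.004 FPKM in sham lungs 1 to 5 and 6.31, 6.25, 6.05, 5.74 and 6.67 FPKM in IncPBF lungs 1 to 5. The groups overlapped, since IncPBF lung 5 was above 4 of the 5 sham lungs. The means were 6.50 ± 0.292 FPKM (SD, n = 5) in sham and 6.20 ± 0.341 FPKM (SD, n = 5) in IncPBF, or 95.4% of sham. The log2 difference of -0.068 (SE 0.056) changed its sign, to 0.011 (SE 0.049), when every lung was scaled to an equal total of fragments. At 831 to 1161 fragments per lung in IncPBF and 954 to 1031 in sham, counting alone gave a coefficient of variation of 3.18% and 3.16%.

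The summed FPKM of the 4 genes was 55.3 ± 3.47 (SD, n = 5) in sham lungs and 28.0 ± 1.26 (SD, n = 5) in IncPBF lungs. The makeup of this sum differed between the groups (see the plot of shares by lung). Ndrg2 made up 77.9% ± 1.21 of the sum in sham lungs and 55.9% ± 1.64 in IncPBF lungs (SD, n = 5 each). The share of Ndrg3 was 11.8% in sham and 22.2% in IncPBF lungs, that of Ndrg1 6.06% and 8.94%, and that of Ndrg4 4.23% and 13.02%. Ndrg1 thus held a larger share in IncPBF lungs at a lower FPKM. In whole-lung RNA, fewer cells of a type and less RNA per cell cannot be told apart.

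**Figure D2:**
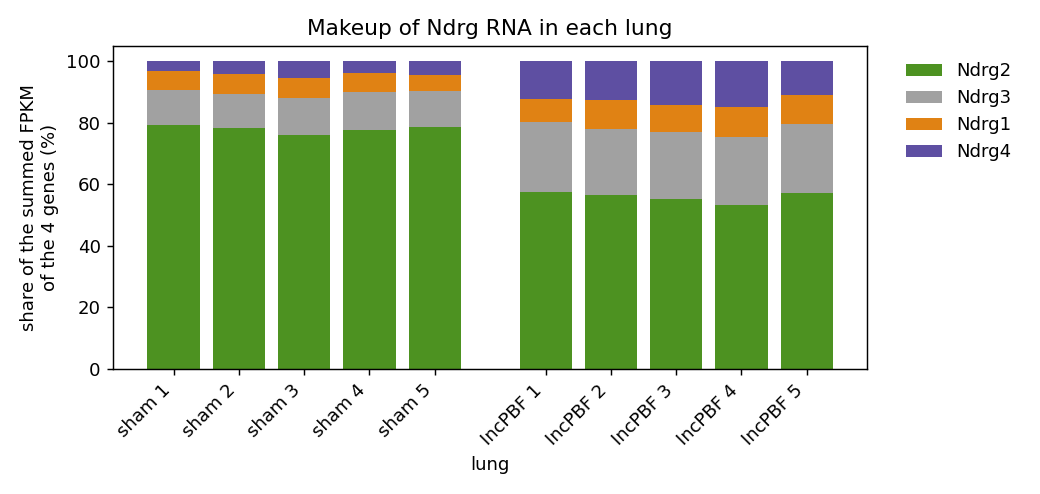
Share of each gene in the summed FPKM of Ndrg1 to Ndrg4 (vertical axis, percent) in each of the 5 sham and 5 IncPBF lungs (horizontal axis), as stacked bars. Ndrg2 takes 76.1% to 79.3% in sham lungs and 53.4% to 57.3% in IncPBF lungs, and Ndrg4 takes 3.28% to 5.29% and 11.1% to 14.8%.

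The order of the levels was the same in every lung of a group, and it differed between the groups at its lower end. All 5 sham lungs had Ndrg2 above Ndrg3, Ndrg3 above Ndrg1 and Ndrg1 above Ndrg4. All 5 IncPBF lungs had Ndrg2 above Ndrg3, Ndrg3 above Ndrg4 and Ndrg4 above Ndrg1. Within each group the ranges of neighbours in the order did not overlap. Ndrg2 was 6.62 times Ndrg3 in the sham means and 2.52 times Ndrg3 in the IncPBF means, on the gene lengths of the table.

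Across all 10 lungs Ndrg2 exceeded Ndrg3 by a mean of 2.01 on the log2(FPKM + 0.1) scale, and Ndrg3 exceeded Ndrg4 by 1.11. Ndrg4 and Ndrg1 differed by 0.0049 on average, with Ndrg4 higher in 5 of 10 lungs. The order was read from the values by which the family was chosen and carries no test.

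These levels depend on the gene length, which in the table is the union of all annotated exons (6596 bases for Ndrg1, 3397 for Ndrg2, 8388 for Ndrg3 and 4893 for Ndrg4). On the length of the transcript with the longest coding sequence instead (2889, 2099, 2612 and 3101 bases), an alternative chosen after seeing the data, Ndrg3 was at 19.9 ± 1.10 FPKM and Ndrg2 at 25.3 ± 1.77 FPKM in IncPBF lungs (SD, n = 5). In sham lungs Ndrg3 was at 20.9 ± 0.937 FPKM and Ndrg2 at 69.7 ± 5.07 FPKM on that length (SD, n = 5). Ndrg2 stayed above Ndrg3 in 5 of 5 lungs of each group, but at 3.34 times its mean in sham and 1.27 times in IncPBF lungs. The mean log2 difference over all lungs became 1.04 for Ndrg2 minus Ndrg3 and 2.14 for Ndrg3 minus Ndrg4. Ndrg1 stayed above Ndrg4 in 5 of 5 sham lungs, but in IncPBF lungs they came to 5.71 and 5.72 FPKM and Ndrg4 was above Ndrg1 in 3 of 5. The place of Ndrg4 above Ndrg1 in IncPBF lungs therefore rested on the length used, while the difference of each gene between groups did not involve it.

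The sex-linked genes set the lungs apart nearly as the groups did, and all 5 sham lungs and IncPBF lung 1 had the male pattern, and IncPBF lungs 2 to 5 the female pattern. Xist, the RNA of the inactive X chromosome, was at 52.4 to 66.5 FPKM in IncPBF lungs 2 to 5 and at 0.0064 to 0.077 FPKM in IncPBF lung 1 and all 5 sham lungs. Ddx3y, a gene of the Y chromosome, was at 21.8 to 24.6 FPKM in sham lungs, 18.6 FPKM in IncPBF lung 1 and 0 to 0.0093 FPKM in IncPBF lungs 2 to 5. IncPBF lung 1 alone against the 5 sham lungs, a comparison chosen after seeing the data, gave a log2 difference of -1.44 for Ndrg2, -0.66 for Ndrg1, 0.55 for Ndrg4 and -0.042 for Ndrg3. With 1 lung on one side these values have no replicate check, but each kept the direction it had over all lungs. With log2 Xist as a covariate the differences were -1.42 (SE 0.12) for Ndrg2, -0.65 (SE 0.13) for Ndrg1, 0.54 (SE 0.21) for Ndrg4 and -0.035 (SE 0.10) for Ndrg3. That fit is no second check. Xist was low in only 1 IncPBF lung, so the fit in effect sets IncPBF lung 1 against the sham lungs.

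**Figure D3:**
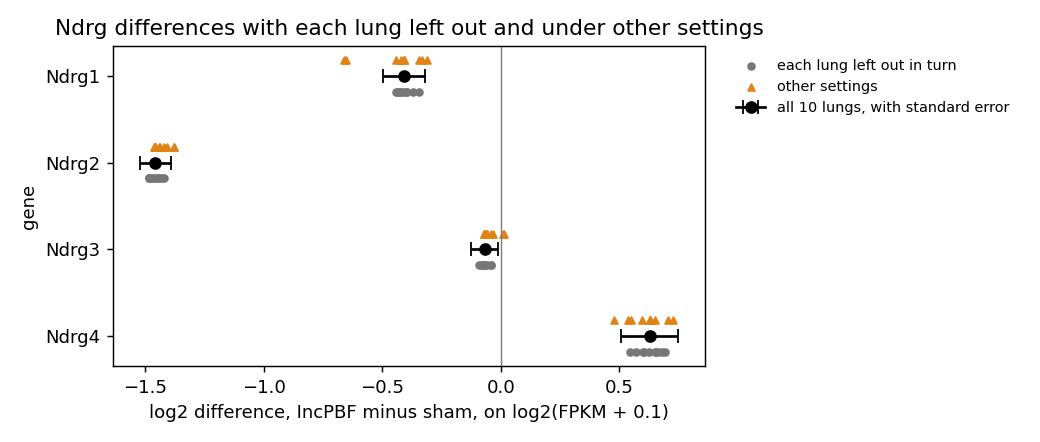
Log2 difference, IncPBF minus sham (horizontal axis, log2(FPKM + 0.1) unless a setting changes it), of each Ndrg gene over all 10 lungs (black, with standard error), with each lung left out in turn (grey) and under the other settings (orange). The settings include the Xist covariate and IncPBF lung 1 alone, which both rest on that lung. Ndrg2 stays between -1.49 and -1.38, Ndrg1 between -0.66 and -0.31 and Ndrg4 between 0.48 and 0.72, and Ndrg3 lies on both sides of 0.

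Within the groups, Ndrg2 and Ndrg3 varied together from lung to lung. As deviations from the own group's mean over 10 lungs, Pearson's r was 0.867 (exact permutation within groups, p = 0.0016, adjusted p = 0.00958 over 6 pairs) and Spearman's rho was 0.842 (exact permutation p = 0.00451, adjusted p = 0.0271). Without the 2 lungs farthest from the median of Ndrg2, r was 0.791. Lung 5 was the highest of its group for both genes in both groups, and lung 4 of the IncPBF group was the lowest. The relation depended on the scaling: with every lung set to an equal total of fragments r was 0.651 and its unadjusted exact permutation p was 0.0735, while median centring gave 0.858 and quantile normalization 0.820 (unadjusted p = 0.00208 and 0.00438). The other 5 pairs of members had r from -0.136 to 0.12, rho from -0.139 to 0.248 and an adjusted permutation p of 0.996 for each r and 1 for each rho.

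**Figure D4:**
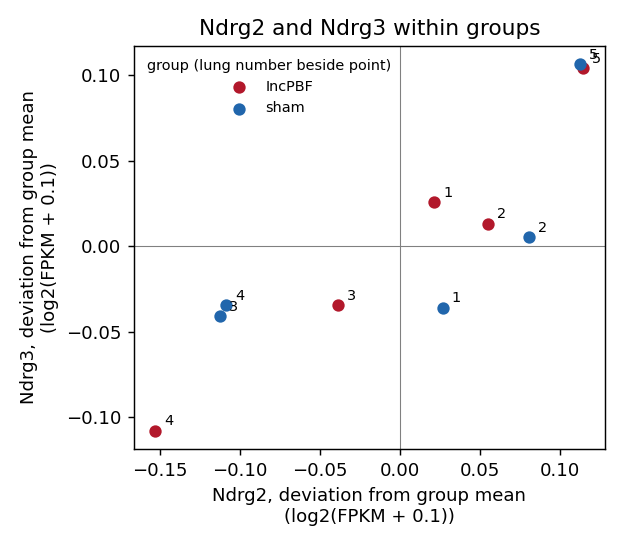
Deviation of Ndrg3 (vertical axis) against that of Ndrg2 (horizontal axis) from the mean of the own group, in log2(FPKM + 0.1), for 5 IncPBF lungs (red) and 5 sham lungs (blue), with lung numbers beside the points. Points run from lower left to upper right with r = 0.867.

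Among 15387 other genes, the 3 with the highest within-group r to each member over the 10 lungs were named, as a description. They were Add3 (0.969), Ets1 (0.968) and Itgb5 (0.966) for Ndrg2, where Add3 is a membrane skeleton protein, Ets1 a transcription factor and Itgb5 an integrin. For Ndrg3 they were Fras1 (0.972), a basement membrane protein, Lrrn4 (0.957) and the BMP signal carrier Smad5 (0.953). Cd248 (0.959), a surface protein of pericytes and fibroblasts, Wtip (0.953) and P3h3 (0.946) came first for Ndrg4. Those nearest to Ndrg1 were Bex1 (0.915), Gm10240 (0.896) and Cald1 (0.890), an actin-binding protein of contractile cells. Cald1 followed Ndrg1 within groups but not between them, since its plain r over the 10 lungs was -0.662. All these points share library, scale and depth, and the values of the top genes are the highest of many.

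The kinases that phosphorylate NDRG proteins were near the same level in both groups. Of 8 kinase genes on the list 7 were tested, 0 were higher and 1 was lower, with a median log2 difference of 0.05 against 0.01 over all 15388 genes. Over all genes limma (log2(FPKM + 0.1), Benjamini-Hochberg adjusted p under 0.05) called 32.3%, with 2480 higher (16.1%) and 2490 lower (16.2%) in IncPBF, and that split became 3559 higher and 1782 lower with an equal total per lung. With that scaling the kinase list had 2 higher and 0 lower.

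Sgk1, the kinase of Ndrg1 and Ndrg2, was at 46.4, 58.3 and 60.1 FPKM (lowest, median and highest) in IncPBF lungs and at 36.3, 47.0 and 51.9 FPKM in sham lungs. The groups overlapped, and the log2 difference of 0.33 (SE 0.12) did not pass (limma, adjusted p = 0.0516), although it passed with an equal total per lung, quantile normalization, limma-voom and a filter of at least 1 FPKM, and also without IncPBF lung 5, sham lung 1 or sham lung 2. Gsk3b, which phosphorylates Ndrg1 after SGK1, was at 14.2 ± 1.02 FPKM in IncPBF and 15.6 ± 1.64 FPKM in sham (SD, n = 5, log2 difference -0.13, limma adjusted p = 0.241).

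The Myc network moved in both directions. Of 12 tested genes 3 were higher and 5 lower in IncPBF lungs (median log2 difference -0.14). The activators Myc and Mycn, which repress Ndrg1, were both higher. Myc was at 3.26, 3.62 and 4.28 FPKM (lowest, median and highest) in IncPBF lungs and 2.05, 2.35 and 2.66 FPKM in sham lungs, without overlap (log2 difference 0.61, limma adjusted p = 0.00104). Mycn was at 3.27, 3.84 and 4.37 FPKM in IncPBF lungs and 1.44, 2.10 and 2.71 FPKM in sham lungs, also without overlap (0.90, adjusted p = 0.00189 in limma). The Max partner Mxd3 was higher as well, at 3.73 ± 0.624 against 1.52 ± 0.599 FPKM (SD, n = 5, log2 difference 1.30, limma adjusted p = 0.000741). Mxd4, another Max partner that opposes Myc, fell from 63.8 ± 9.01 FPKM in sham to 40.3 ± 2.08 FPKM in IncPBF (SD, n = 5, log2 difference -0.65, limma adjusted p = 0.000392). The other 4 lower genes, named after their values were seen, were Mnt (-0.28), Mlxip (-0.51), Mxd1 (-0.28) and Mxi1 (-0.32).

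**Figure D5:**
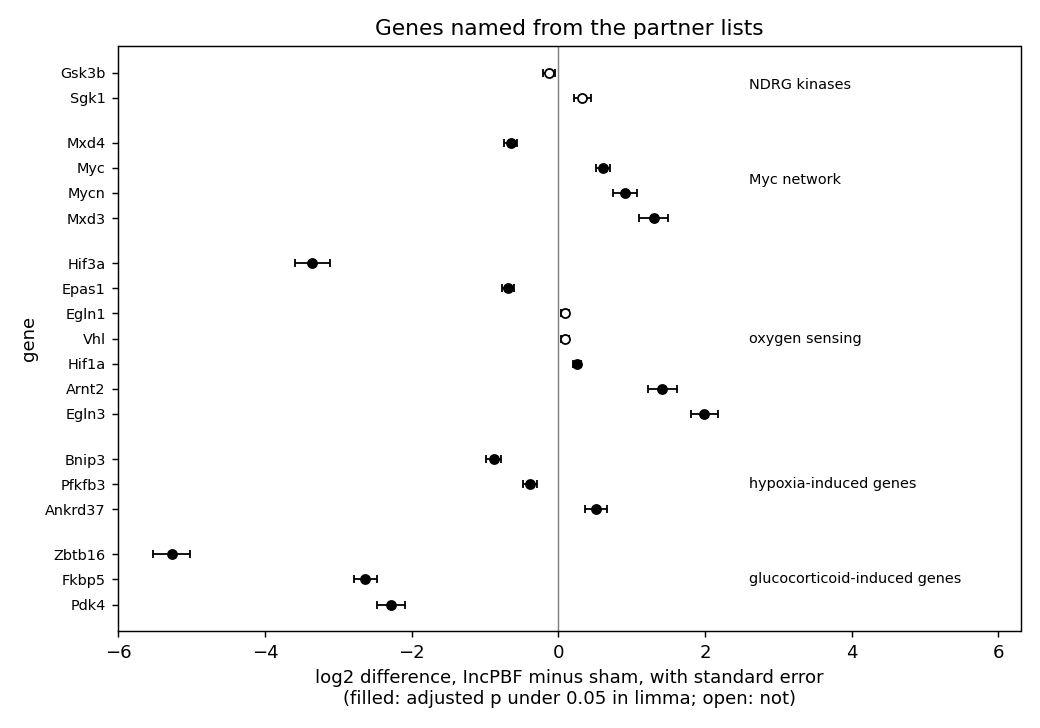
Log2 difference, IncPBF minus sham (horizontal axis, log2(FPKM + 0.1)), with standard error, of genes named from 5 lists (vertical axis). Filled points have a limma adjusted p under 0.05. Myc and Mycn lie right of 0, Hif3a, Zbtb16, Fkbp5 and Pdk4 lie furthest left, and Sgk1, Gsk3b, Egln1 and Vhl are open.

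Genes of oxygen sensing also split, with 3 of 10 higher and 3 lower (median log2 difference -0.02), and with 5 higher under an equal total per lung. Egln1 and Vhl, which act on Ndrg3 protein, were at 25.9 ± 1.40 against 24.4 ± 1.68 FPKM and at 16.2 ± 1.02 against 15.2 ± 0.396 FPKM in IncPBF and sham lungs (SD, n = 5). Neither passed (log2 difference 0.09 each, limma adjusted p = 0.289 and 0.21), though both passed with an equal total per lung. Egln3, a prolyl hydroxylase that is itself induced by HIF, rose from 0.626 ± 0.147 to 2.77 ± 0.563 FPKM (SD, n = 5, log2 difference 1.99, limma adjusted p = 3.21e-05). Hif1a rose slightly, from 19.2 ± 0.565 to 22.9 ± 1.34 FPKM (SD, n = 5, 0.25, limma adjusted p = 0.00352), and Arnt2 from 0.321 ± 0.0922 to 1.01 ± 0.0943 FPKM (SD, n = 5, 1.42, limma adjusted p = 0.000438). Epas1, the HIF-2 subunit of endothelium, fell from 638 ± 74.5 to 394 ± 7.97 FPKM (SD, n = 5, -0.69, limma adjusted p = 0.000198). Hif3a fell furthest, from 7.08 ± 1.56 to 0.627 ± 0.299 FPKM (SD, n = 5, -3.36, limma adjusted p = 7.24e-06), and the third lower gene, named after its values were seen, was Egln2 (-0.30).

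Among 20 genes known to rise with hypoxia, 4 were higher and 7 lower in IncPBF lungs (median log2 difference -0.19). Bnip3, a mitophagy receptor, fell from 17.6 ± 2.77 to 9.43 ± 0.787 FPKM (SD, n = 5, -0.88, limma adjusted p = 0.000125). The glycolytic regulator Pfkfb3 fell from 15.6 ± 2.29 to 11.8 ± 0.879 FPKM (SD, n = 5, -0.39, limma adjusted p = 0.00943). Ankrd37 rose from 1.88 ± 0.123 to 2.77 ± 0.632 FPKM (SD, n = 5, 0.51, limma adjusted p = 0.0214), with overlapping groups, and lost its call without IncPBF lung 1. The other 3 higher genes, named after their values were seen, were the glycolytic Ldha (0.36), Pgk1 (0.26) and Eno1 (0.24). The other 5 lower genes, also named after their values were seen, were the growth factor Vegfa (-0.31), the glycolytic Aldoa (-0.17), Pdk1 (-0.22), Kdm3a (-0.28) and Ero1l (-0.29). The lower count was 4 with an equal total per lung and also without IncPBF lung 1, IncPBF lung 4 or sham lung 5.

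Most glucocorticoid-induced genes were lower, as Ndrg2 was. Of 15 tested genes 10 were lower and 1 higher in IncPBF lungs, and the median log2 difference was -1.0 against 0.01 over all genes. Zbtb16, a transcription factor, was at 0.439, 0.799 and 1.36 FPKM (lowest, median and highest) in IncPBF lungs and at 26.5, 30.5 and 41.4 FPKM in sham lungs (log2 difference -5.28, limma adjusted p = 1.15e-06). Fkbp5, a chaperone partner of the glucocorticoid receptor, fell from 11.1 ± 2.56 to 1.67 ± 0.189 FPKM (SD, n = 5, -2.63, limma adjusted p = 2.73e-06). Pdk4, a pyruvate dehydrogenase kinase, fell from 11.7 ± 2.89 to 2.31 ± 0.601 FPKM (SD, n = 5, -2.28, limma adjusted p = 1.96e-05). Net1, named after its values were seen, was the higher gene (0.78, limma adjusted p = 0.0005). No hormone was measured here, and the list was drawn up with earlier results of these lungs known.

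The fit with the Xist covariate rests on IncPBF lung 1 against the sham lungs. That lung was also in the first calls, so kept signs and sizes are no independent check. With the Xist covariate fewer of these genes passed, at differences of about the same size. Of 41 called genes of the 5 lists and of the neighbours below, 13 passed with it and 41 kept their sign. Their median absolute log2 difference was 0.57 without and 0.55 with the covariate, and their median standard error was 0.099 and 0.17. Myc, for example, went from 0.61 to 0.69 (limma adjusted p = 0.0504) and Mycn from 0.90 to 0.91 (limma adjusted p = 0.108). Over all genes 328 were higher and 413 lower with the covariate. Of these 41 genes, 35 kept their call under each of the other 10 settings and 34 with any lung left out, and 0 changed sign in those fits. The glucocorticoid list kept 8 lower genes with the covariate.

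The neighbours of the Ndrg genes were checked, since nearby genes can share regulation or reads. Ndrg1 had a neighbour that moved the other way. Wisp1 (Ccn4), a secreted matricellular protein on the opposite strand that ends 6116 bases from the end of Ndrg1, rose from 6.53 ± 0.809 FPKM in sham to 20.7 ± 1.5 FPKM in IncPBF (SD, n = 5, log2 difference 1.66, limma adjusted p = 1.85e-06), with no overlap. On the other side St3gal1, 133234 bases away, fell slightly (-0.23, limma adjusted p = 0.0245) and lost its call in 5 of 10 fits that left out a lung and with an equal total per lung. The genes next to Ndrg2, Slc39a2 (0.14, limma adjusted p = 0.561) and Arhgef40 (0.04, limma adjusted p = 0.688), did not pass, and no gene of the table overlapped Ndrg2. Rab5if beside Ndrg3 did not pass (-0.12, limma adjusted p = 0.184), and Gm14276, a processed pseudogene 2116 bases away whose reads may belong to its parent gene, rose (0.52, limma adjusted p = 0.0087). Ndrg3 also overlaps the small RNA gene Gm27653, listed with 0 fragments. Gins3, on the left of Ndrg4, rose (0.44, limma adjusted p = 0.0134), while Setd6, 761 bases to its right on the same strand, did not pass (0.19, limma adjusted p = 0.19).

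Markers of some cell types differed between the groups, and their part in the members' differences was not tested. The tissue label was met: Sftpc was at 9583 to 11925 FPKM in IncPBF lungs, and Ager and Pecam1 were at 584 ± 11.0 and 130 ± 4.41 FPKM there (SD, n = 5). All 6 alveolar type 1 markers were lower (summed 1017 to 1085 FPKM in IncPBF, 1261 to 1626 in sham), as were 4 of 6 alveolar type 2 markers (11073 to 13692 against 13535 to 16731) and 4 of 6 capillary endothelium markers (539 to 605 against 610 to 838). Most of the alveolar type 2 sum was Sftpc, which did not pass (9583 to 11925 against 10934 to 14074 FPKM, limma adjusted p = 0.358). Smooth muscle and myofibroblast markers were higher in 3 of 5 (286 to 539 against 104 to 225), fibroblast markers in 2 of 5 (869 to 1049 against 800 to 977), and mast cell and basophil markers in 3 of 4 tested (4.01 to 8.90 against 2.73 to 4.03). Erythroid markers were lower in 3 of 5 (251 to 1927 against 1458 to 2442). No marker of club cells (5016 to 10644 against 139.9 to 12529), ciliated cells (102 to 131 against 105 to 155), macrophages (44.0 to 353 against 60.7 to 313) or lymphocytes (14.6 to 18.3 against 17.4 to 22.1) passed.

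Markers of the cells in which the family is best known were mostly low. Of 6 Schwann cell and glia markers 4 were tested, with S100b higher and Mbp lower (summed 7.90 to 12.0 FPKM in IncPBF, 6.11 to 7.89 in sham). Of 6 neuron markers 1 was tested and 0 passed (4.01 to 5.43 against 4.64 to 5.92). Cardiac muscle markers, of interest for Ndrg4, summed to 32.4 to 98.0 FPKM in IncPBF and to 7.53 to 46.2 FPKM in sham lungs, with 0 of 5 passing. Most of that sum was Actc1, at 51.5 ± 20.2 FPKM in IncPBF and 29.5 ± 14.9 FPKM in sham (SD, n = 5). Myh6, which defines that list, was at 1.01 ± 1.36 FPKM in IncPBF and 0.318 ± 0.152 FPKM in sham (SD, n = 5). Its lowest, median and highest values were 0, 0.0385 and 2.58 FPKM in IncPBF lungs and 0.116, 0.303 and 0.521 FPKM in sham lungs. The higher IncPBF mean of Myh6 thus came from a minority of lungs, and the log2 difference was 0.014. The 5 adipocyte markers summed to 1.17 to 2.14 FPKM in IncPBF and 1.83 to 4.13 FPKM in sham lungs. Of these 1, Cidec, was tested and was lower (0.999 to 1.75 against 1.66 to 4.05 FPKM), with overlapping groups. Adipoq, Plin1 and Cfd were too low to be tested and had higher means in IncPBF (0.0656 against 0.0153, 0.238 against 0.0984 and 0.146 against 0.0352 FPKM). Lep was at 0 in every lung.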

How the data were processed

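Lung RNA from 5 IncPBF and 5 sham pups was sequenced by the authors from NEBNext libraries and deposited as FPKM per gene with gene lengths. The submitters' processing notes name Bowtie 0.12.2, GRCm38, mm10 and hg38, and the scaling and the counting tool are not given in the sources used here. FPKM times length was a whole number of fragments (within 0.05) for 100% of values, with 16103423 to 20318525 fragments per lung. Gene positions matched GENCODE M21 (GRCm38) for 98.3% of 54409 shared genes. The IncPBF columns carry another abbreviation than the titles and were assigned by exclusion of the sham columns and by their numbers.

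Genes with a mean of at least 0.5 FPKM were fitted on log2(FPKM + 0.1) with limma 3.58.1 (eBayes with trend, R 4.3.3), tested on simulated data. Descriptions, the exact permutation test of correlations and figures used Python 3.11.15, scipy 1.17.1 and matplotlib 3.10.9. The members and all lists were chosen with earlier results of these data known. Genes named were the members, Sgk1, Gsk3b, Myc, Mycn, Hif1a, Epas1, Egln1 and Vhl, the 3 largest called differences of each list, overlapping and nearest tested genes, the 3 genes most like each member, and Sftpc, Ager, Pecam1 and Myh6 as defining markers. Some genes that fall under this rule are not reported here. The sign-flip test planned for the order of the levels is not reported, since the members were chosen on the same values. Nothing states whether the 5 lungs of a group are from separate litters, so p-values measure the spread between these lungs.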

Additional observations from a re-analysis of the deposited data

Results flagged for a closer look

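In each of 88 groups of 5 lungs (44 named genes, 2 groups) the highest or lowest lung was compared with the others by Dixon's test, and 7 groups held a lung further from its neighbour than the critical value of 0.71 allows. Chance alone gives such a lung in about 5% of groups. None of the 4 Ndrg genes was among them. The highest lung stood apart in each case. Mxd3 was at 2.58 FPKM in sham lung 3, where the next sham lung was at 1.35 FPKM. IncPBF lung 5 stood apart for Hif3a, at 1.15 FPKM with the next lung at 0.596 FPKM, and for Pdk4, at 3.35 FPKM with the next lung at 2.30 FPKM. Sham lung 5, the highest sham lung for Ndrg3, stood apart for 2 of the 3 genes most like Ndrg3, Fras1 (4.56 FPKM, next 3.25 FPKM) and Smad5 (25.9 FPKM, next 24.4 FPKM). Vhl was at 15.9 FPKM in sham lung 2 (next 15.1 FPKM) and Arhgef40 at 10.3 FPKM in IncPBF lung 3 (next 8.82 FPKM).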

How the results depend on the processing

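The cause of the changes named here was not tested. Leaving out each lung in turn kept the log2 difference of Ndrg1 between -0.44 and -0.35, of Ndrg2 between -1.49 and -1.42, of Ndrg3 between -0.094 and -0.041 and of Ndrg4 between 0.55 and 0.69. Larger moves came from the Xist covariate (Ndrg1 -0.65) and IncPBF lung 1 alone (Ndrg1 -0.66), which both rest on that lung. For Ndrg3 they came from an equal total per lung (0.011) and limma-voom (0.013). The replicate numbers showed no pairing of the lungs over all genes tested. Same-numbered lungs deviated with r from -0.0675 to 0.0854, and 2 of 10 lungs correlated best with their own number. Shared litters were not tested, since the labels give no litter. With the replicate block the SE of Ndrg2 was 0.043, against 0.066 without it. The replicate block gave 2390 higher and 2482 lower genes, left every member's difference in place (Ndrg2 -1.46, Ndrg4 0.63) and ended the calls of some list genes (hypoxia list 6 lower). With a lung left out, 1945 to 2537 genes were higher and 1920 to 2697 lower.

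With the Xist covariate 328 genes were higher and 413 lower, and the lists had 0 kinases lower, 0 Myc network genes higher and 0 lower, 1 oxygen-sensing gene higher, 0 hypoxia-induced genes higher and 1 lower, and 0 glucocorticoid-induced genes higher. The 41 called genes of the lists and neighbours kept their sign there. Their median absolute log2 difference was 0.55 against 0.57 and their median standard error 0.17 against 0.099. Since the covariate fit rests on IncPBF lung 1, which was in the first calls, this is no independent check. An equal total per lung and limma-voom each gave 2 kinases higher, 5 oxygen-sensing genes higher and 4 hypoxia-induced genes lower, and an equal total 0 kinases lower. Without the filter 0 kinases and 4 hypoxia-induced genes were lower. A filter of at least 1 FPKM and quantile normalization each gave 1 kinase higher. With a lung left out the lists ran from 0 to 1 kinases higher and 0 to 2 lower, 3 to 3 Myc network genes higher and 5 to 6 lower, 3 to 3 oxygen-sensing genes higher and 3 to 4 lower, 3 to 4 hypoxia-induced genes higher and 4 to 9 lower, and 1 to 1 glucocorticoid-induced genes higher and 9 to 10 lower. The count of lower kinases was 0 without IncPBF lung 2, 3 or 4 or sham lung 1, 2 or 5, and 2 without sham lung 3.

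Ndrg4 minus Ndrg1 over all lungs, 0.0049, lay between -0.072 and 0.098 with a lung left out and turned to -0.52 on the length of the longest coding transcript. Ndrg2 minus Ndrg3 stayed between 1.93 and 2.09, and Ndrg3 minus Ndrg4 between 1.04 and 1.17, with a lung left out, but were 1.04 and 2.14 on that transcript length. The r of Ndrg2 and Ndrg3 ran from 0.796 to 0.912 with a lung left out and was 0.651 with an equal total. As Spearman's rho, likeness was 0.830 for Bex1 and 0.794 for Gm10240 (Ndrg1), 0.939 for Add3, 0.939 for Ets1 and 0.903 for Itgb5 (Ndrg2), 0.903 for Fras1, 0.903 for Lrrn4 and 0.867 for Smad5 (Ndrg3), and 0.915 for P3h3 (Ndrg4). Depth limited Ndrg4 most, at 159 to 255 fragments per sham lung.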

Other observations

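Over the plain values of all 10 lungs, which follow the difference between the groups, other genes came nearest to each member. For Ndrg2 these were Adamtsl2 (r = 0.995), a secreted protein that binds the TGF-beta binding proteins of the matrix, Zbtb16 (0.994) and Serpina3c (0.993), and within the groups their r to Ndrg2 was 0.863, 0.717 and 0.630. For Ndrg4 they were Dact3 (0.983), a Wnt antagonist, Efemp2 (0.982), an elastic fibre protein also named fibulin-4, and Clip3 (0.979), and within the groups r was 0.931, 0.941 and 0.939. Ndrg1 was nearest to 4930515G01Rik (0.956), Rb1cc1 (0.939), an autophagy protein, and Ttc22 (0.938). For Ndrg3 the nearest were Tbc1d16 (0.934), Lrrc28 (0.932) and Tbc1d2b (0.926). These are the highest of 15387 values for each member and are given as a description.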
